A study of Mus musculus with 7 samples.

Results

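The 10 genes described here are *Fos*, *Fosb*, *Fosl1*, *Jun*, *Junb*, *Jund*, *Atf3*, *Egr1*, *Ier2* and *Klf6*, which were taken by name from the 31053 genes of the count tables of 7 single-cell RNA-seq libraries. Fos and Jun proteins pair to form AP-1, a transcription factor that binds DNA at enhancers and promoters of genes for growth, invasion and stress. The genes of most of these proteins are immediate early genes: they are switched on within minutes of a growth factor, a stress or a wound, without new protein synthesis, and their RNAs decay fast. Breaking a tissue into single cells with warm enzymes can switch them on as well, so that a level measured in dissociated cells may hold RNA made in the tumor and RNA made in the tube.

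The libraries came from mammary tumors of adult mice, harvested at about 1000 mm3 and sorted for CD24+ cells without CD31, CD45 or Ter119. BRCA1-null tumors (2 libraries, A and B) arose spontaneously in mice labelled FVB/NJ with Brca1 F/F, Trp53 F/F and K14-Cre, in which the keratin 14 promoter drives Cre in basal epithelium. Neu tumors (2 libraries) arose spontaneously in MMTV-Neu mice of the same labelled strain, from stock crossed with FIP200 F/F mice, Neu A carrying the floxed alleles without Cre, and PyMT tumors (2 libraries) grew in wild-type FVB/NJ mice from transplanted FF99WT cells, a single line from an MMTV-PyMT tumor that carries floxed FIP200 alleles and no Cre. The 4T1 tumor (1 library) grew in a BALB/C mouse from the transplanted 4T1 mammary carcinoma line, marked with GFP. Every tumor was minced and digested for 2 h at 37 °C in collagenase (300 units per mL) and hyaluronidase (100 units per mL), then for 5 min in trypsin. Cells with at least 1000 UMIs (unique molecular identifiers, which count captured RNA molecules), at least 500 genes and under 20% of UMIs from mitochondrial genes were kept. These were 245 and 2078 cells of BRCA1-null A and B, 1947 and 1842 of PyMT, 2308 and 1997 of Neu and 1751 of 4T1, with median depths between 8609 and 19410.5 UMIs per cell. At least 1 UMI of the 5 epithelial markers was found in 97.9% to 100% of the cells of each library. *Cd24a*, the gene of the protein used for sorting, is among the 5, so this share does not by itself mark cells as epithelial. By the same measure mesenchymal markers were found in 77.4% of BRCA1-null B cells, 42.9% of BRCA1-null A cells and at most 11.4% elsewhere. BRCA1-null A is small and BRCA1-null B stood apart by its mesenchymal markers, summed at 1772 CPM (UMIs of a gene per 1000000 UMIs of the library) against 390.4 in BRCA1-null A and at most 32.1 elsewhere. In the 7 libraries 213 cells carried a barcode found in more than 1 library.

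The promoters are shown because members that move together may share sequence. RefSeq start sites were held for 7 of the 10 genes, on GRCm38.p6, each with 250 bases before and 50 after the start. The 120 bases just before the start are given 5′ to 3′ on the strand of the gene, with matches to TGACG on either strand in capitals, the core of the CRE to which CREB and ATF proteins bind.
Fos, chr12:85473770-85473889, plus strand: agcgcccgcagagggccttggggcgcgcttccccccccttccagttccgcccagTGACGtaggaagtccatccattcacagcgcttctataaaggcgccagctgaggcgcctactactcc
Fosb, chr7:19310046-19310165, minus strand: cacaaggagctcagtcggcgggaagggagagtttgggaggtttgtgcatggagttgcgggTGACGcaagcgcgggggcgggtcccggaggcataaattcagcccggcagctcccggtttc
Junb, chr8:84978749-84978868, minus strand: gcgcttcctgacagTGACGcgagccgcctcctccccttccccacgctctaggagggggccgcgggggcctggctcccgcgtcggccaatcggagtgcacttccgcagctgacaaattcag
Atf3, chr1:191183334-191183453, minus strand: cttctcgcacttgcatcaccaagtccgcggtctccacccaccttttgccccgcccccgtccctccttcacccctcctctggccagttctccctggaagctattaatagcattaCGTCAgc
Jun, chr4:95052223-95052342, minus strand: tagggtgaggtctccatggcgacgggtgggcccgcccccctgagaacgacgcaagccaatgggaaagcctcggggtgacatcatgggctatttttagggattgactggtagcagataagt
Klf6, chr13:5861369-5861488, plus strand: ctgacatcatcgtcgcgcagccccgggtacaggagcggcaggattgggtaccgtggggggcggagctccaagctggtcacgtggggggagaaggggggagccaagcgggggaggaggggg
TGACG was found in the windows of *Fos*, *Fosb*, *Junb* and *Atf3*, which is 4 of 7, beside 20.8% of all 32851 windows. The full CRE palindrome TGACGTCA, the AP-1 site TGANTCA and the CArG box of serum response factor were found in 0 of 7 windows and in 1.79%, 7.81% and 1.63% of all windows. *Fos* and *Junb* held TATAAA, present in 13.6% of all windows, and the match of *Junb* lies outside the 120 bases shown. *Fosb* alone held GCGNGGGCG, the site of EGR proteins (5.55%), and 5 of 7 held the GC box GGGCGG (35.7%). Both strands were searched, and the last 2 motifs can overlap, as TGACG does with the palindrome. Only exact matches were counted, so near variants were not, such as tgacatca in the stretches shown for *Jun* and *Klf6*. Sites more than 250 bases before the start were not searched, so a motif absent from a window may lie further off. The window of *Jund*, which is counted among the 7 but not shown, ends at position 70697738 of chromosome 8, before the start of the gene in GENCODE M21 at 70698949, and held none of these motifs. The *Atf3* window lies within the gene in GENCODE M21, before a start used by shorter transcripts. No window was at hand for *Fosl1*, *Egr1* and *Ier2*.

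The question put to the tumor types was which members differ between them beyond the spread between tumors of a type. Of the 10 members, *Fosl1* and *Klf6* passed in at least 1 comparison, and both were highest in PyMT among the FVB/NJ tumors. The other 8 members did not pass in any. Both PyMT tumors were transplants of 1 line, whereas the BRCA1-null and Neu tumors arose spontaneously. Tumor type therefore cannot be told apart from line and transplantation in the comparisons with PyMT. The spread between the PyMT tumors is also not that of tumors that arose independently. A member passed when the edgeR quasi-likelihood test on UMIs summed per library, with Benjamini-Hochberg adjustment over all genes tested, gave an adjusted p under 0.05. BRCA1-null against PyMT gave 1 member of 10, with 22.4% of all genes passing in either direction. BRCA1-null against Neu gave 1 of 10, with 29.2% of all genes, and PyMT against Neu gave 2 of 10, with 16.9%. Each type enters 2 of the 3 comparisons, so they share libraries. In the first 2 the count lies below the share of all genes, but 10 members are too few to show a deficit. In PyMT against Neu 2 of 10 lies near the 16.9% of all genes.

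**Figure D1:**
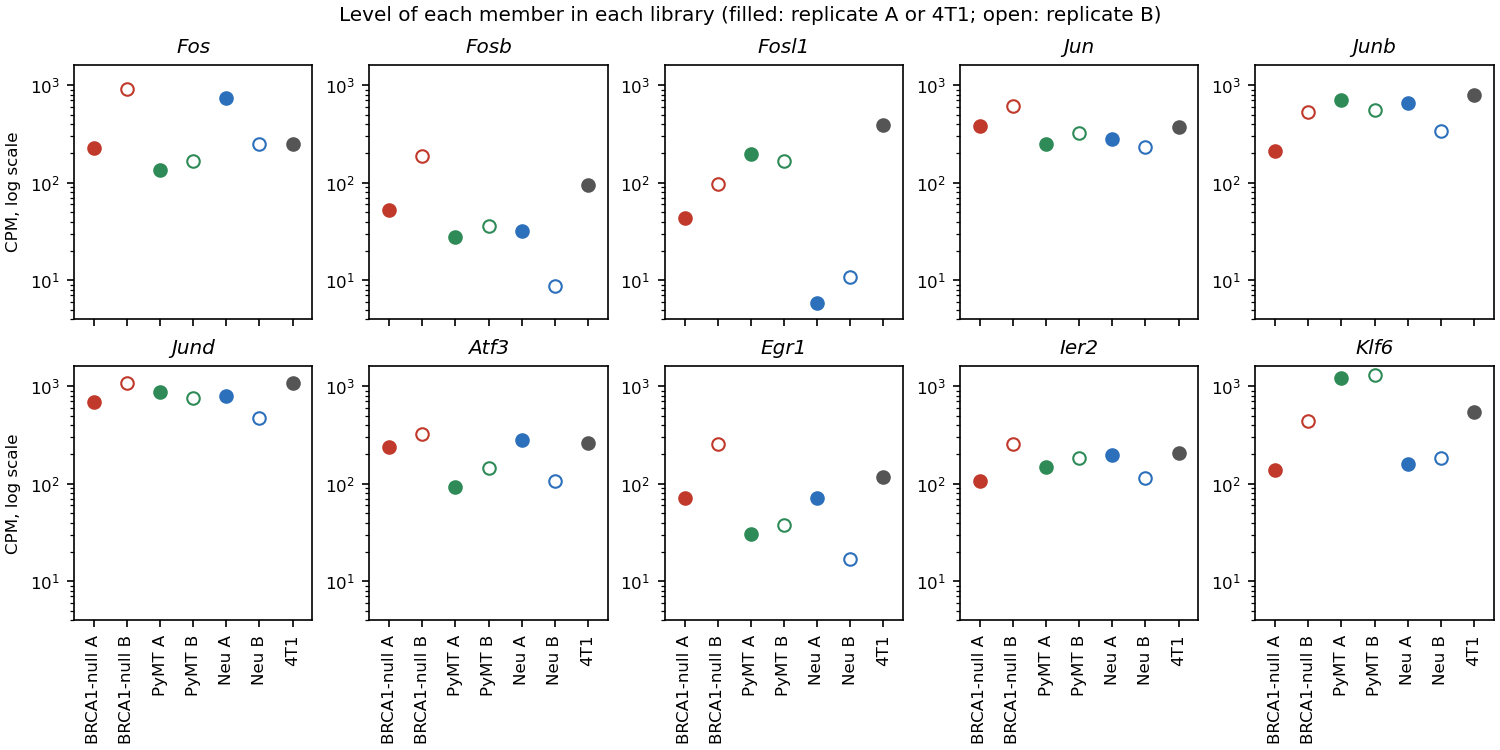
CPM (log scale) of each of the 10 genes in each library; filled points are replicate A or the single 4T1 library, open points replicate B. *Fosl1* and *Klf6* separate PyMT from Neu, whereas *Fos*, *Fosb* and *Egr1* differ most between the A and B libraries of BRCA1-null and of Neu, in opposite directions.

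*Fosl1* encodes FRA-1, a Fos protein without the strong activating domain of FOS that is known from invasive breast cancer cells. The gene lies at chromosome 19, 5447547 to 5455946, plus strand (GRCm38), and overlaps *Ccdc85b* on the other strand. It was measured at 43.9 and 97.7 CPM in BRCA1-null A and B, 197 and 168 CPM in PyMT, 5.83 and 10.8 CPM for Neu and 391 CPM for 4T1. The 3 FVB/NJ types did not overlap, and the 4T1 library lay above all 6. The means were 70.8 ± 38.0 CPM in BRCA1-null, 182 ± 20.0 CPM in PyMT and 8.32 ± 3.52 CPM in Neu (SD, n = 2 each). *Fosl1* was higher in PyMT than in Neu by 4.58 on the log2 scale (SE 0.60, adjusted p = 0.00664) and higher in BRCA1-null than in Neu by 2.90 (SE 0.56, adjusted p = 0.0127). Between BRCA1-null and PyMT the log2 fold change was -1.68 (SE 0.53, adjusted p = 0.0629), and with the replicate letter as a block, taken here as the sequencing batch although no label states it, the adjusted p was 0.0361 and the count of members that passed 2. Without Neu A the adjusted p was 0.0597 for PyMT against Neu and 0.0911 for BRCA1-null against Neu, and without Neu B the latter was 0.0512. Without BRCA1-null B the log2 fold change for BRCA1-null against Neu was 1.99 (adjusted p = 0.0172), without BRCA1-null A it was 3.40 (adjusted p = 0.00183) and without Neu B 3.50. For PyMT against Neu it was 5.20 without Neu B (adjusted p = 0.0440).

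*Klf6* encodes a zinc finger factor that binds GC-rich promoters and is induced by wounding. It lies at chromosome 13, 5861482 to 5870394, plus strand. Its levels were 138 and 436 CPM in BRCA1-null A and B, 1219 and 1302 CPM in PyMT, 159 and 184 CPM for Neu and 548 CPM for 4T1. Both PyMT libraries lay above every other library, whereas the BRCA1-null and Neu libraries overlapped. *Klf6* was higher in PyMT than in Neu by 3.03 on the log2 scale (SE 0.60, adjusted p = 0.0201) and lower in BRCA1-null than in PyMT, with a log2 fold change of -2.44 (SE 0.59, adjusted p = 0.0296). Without the cells that held 5 or more UMIs of mesenchymal or pericyte markers the latter was -2.46 (adjusted p = 0.0474). It was -3.78 without BRCA1-null B and -1.86 without BRCA1-null A. Leaving out any 1 PyMT or Neu library took *Klf6* above the threshold in both comparisons, with adjusted p of 0.123 without PyMT A, 0.129 without PyMT B, 0.0615 without Neu A and 0.0623 without Neu B for BRCA1-null against PyMT, and of 0.0967, 0.0973, 0.153 and 0.114 for PyMT against Neu.

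**Figure D2:**
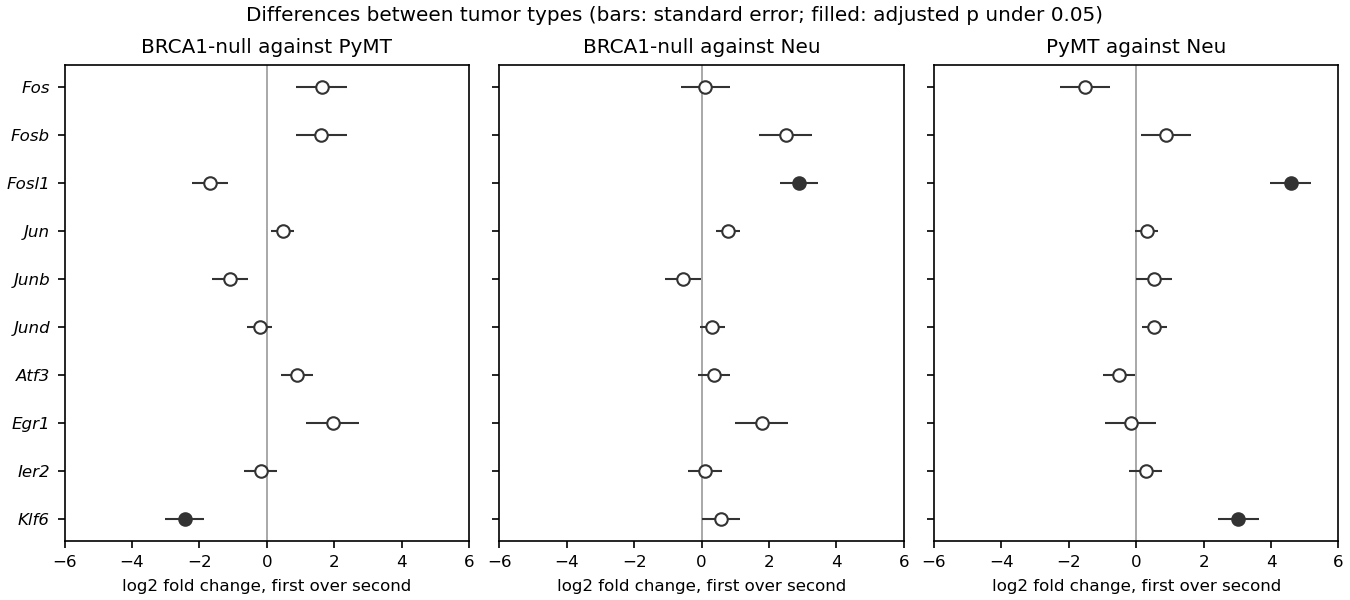
Log2 fold change of each gene between the tumor types, from edgeR on 2 libraries per type; bars are 1 standard error and filled points have an adjusted p under 0.05. *Fosl1* is filled in both comparisons with Neu and *Klf6* in both with PyMT, and the bars of *Fos*, *Fosb* and *Egr1* are among the widest.

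*Fos*, the prototype of the immediate early genes, lies at chromosome 12, 85473890 to 85477273, plus strand. It was measured at 226 and 919.8 CPM in BRCA1-null A and B, 135 and 168 CPM in PyMT, 741 and 249.7 CPM for Neu and 249 CPM for 4T1. BRCA1-null B and Neu A were high, and the other 5 libraries lay between 135 and 249.7 CPM, so that BRCA1-null and Neu overlapped. The BRCA1-null B level was 4.07 times that of A, the PyMT B level 1.24 times and the Neu B level 0.337 times. The log2 fold change was 1.62 (SE 0.75, adjusted p = 0.165) for BRCA1-null against PyMT, 0.11 (SE 0.73, adjusted p = 0.918) for BRCA1-null against Neu and -1.51 (SE 0.75, adjusted p = 0.203) for PyMT against Neu.

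*Fosb*, a close relative of *Fos* at chromosome 7, 19302696 to 19310051, minus strand, was at 52.7 and 188 CPM in BRCA1-null, 27.8 and 36.3 CPM in PyMT, 31.6 and 8.67 CPM for Neu and 94.2 CPM for 4T1. Both BRCA1-null libraries lay above those of PyMT and Neu. For BRCA1-null against Neu its log2 fold change was 2.49 (SE 0.78, adjusted p = 0.0518). It passed in 6 of 18 alternatives, such as DESeq2 at 2.52 (adjusted p = 0.00422). With the replicate letter as a block in edgeR the adjusted p was 0.103. *Egr1* encodes a zinc finger factor that responds to the same signals as *Fos* and lies at chromosome 18, 34859823 to 34864984, plus strand. Its levels were 71.9 and 254 CPM in BRCA1-null, 30.9 and 37.6 CPM in PyMT, 72.3 and 16.9 CPM for Neu and 118 CPM for 4T1. For *Fosb* the B library stood at 3.58, 1.31 and 0.274 times the A library in BRCA1-null, PyMT and Neu, and for *Egr1* at 3.53, 1.22 and 0.233 times. The 3 genes *Fos*, *Fosb* and *Egr1* thus shared the direction of the difference between replicate tumors in each type, higher in BRCA1-null B, higher in PyMT B and lower in Neu B, as did *Jun*, *Atf3* and *Ier2*.

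The Jun genes encode the partners of the Fos proteins. *Jun* lies at chromosome 4, 95049034 to 95052222, minus strand, is a gene of 1 exon and overlaps *Junos* on the other strand. It was at 385 and 611 CPM in BRCA1-null, 251 and 320.3 CPM in PyMT, 283 and 233 CPM for Neu and 374 CPM for 4T1, so that both BRCA1-null libraries lay above those of the other FVB/NJ tumors. *Junb*, which often acts against *Jun* (chromosome 8, 84974484 to 84978718, minus strand), was at 212 and 529 CPM in BRCA1-null, 709.8 and 553 CPM in PyMT, 656 and 336 CPM for Neu and 799 CPM for 4T1. *Jund*, which is made at a steadier rate than the other Jun genes (chromosome 8, 70698949 to 70700616, plus strand), was at 683 and 1079 CPM in BRCA1-null, 865 and 752 CPM in PyMT, 789.6 and 471 CPM for Neu and 1086 CPM for 4T1. *Junb*, *Jund* and *Atf3* each overlap a gene on the other strand (*Prdx2*, *Gm11175* and *Gm24748*). The highest *Jund* library was 4T1 and the lowest Neu B. The log2 fold changes of the 3 genes between types ran from -1.09 to 0.77, with adjusted p from 0.142 to 0.717.

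*Atf3* encodes a stress-induced ATF protein that pairs with Jun proteins and lies at chromosome 1, 191170296 to 191218039, minus strand. It was at 237 and 327 CPM in BRCA1-null, 93.0 and 146 CPM in PyMT, 283 and 107 CPM for Neu and 265 CPM for 4T1. The BRCA1-null libraries lay above those of PyMT, and Neu overlapped both ranges. *Ier2*, a short immediate early gene of 1 exon (chromosome 8, 84661331 to 84662852, minus strand), was at 107 and 259 CPM in BRCA1-null, 149 and 185 CPM in PyMT, 197 and 114 CPM for Neu and 209 CPM for 4T1, and the 3 types overlapped. The level in 4T1 has no replicate and was not tested. Its counting error was small, with a 95% Poisson interval of 242 to 256 CPM for *Fos*, which covers counting error only.

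Which members passed in the BRCA1-null comparisons with PyMT turned on which BRCA1-null library was kept. With B alone *Fos* (log2 fold change 2.28, adjusted p = 0.0202), *Fosb* (2.23, adjusted p = 0.0319) and *Egr1* (2.56, adjusted p = 0.0280) were higher than in PyMT. With A alone *Fosl1* (-2.64, adjusted p = 0.0127), *Junb* (-2.16, adjusted p = 0.0157) and *Ier2* (-1.23, adjusted p = 0.0457) were lower than in PyMT. Against Neu, *Fosb*, *Jun*, *Egr1* and *Klf6* were higher with B alone, at 3.17, 1.14, 2.46 and 1.22 (adjusted p = 0.00754, 0.0247, 0.0250 and 0.0230), and *Junb* was lower with A alone, at -1.56 (adjusted p = 0.0357). Without BRCA1-null A *Fos* was also lower in PyMT than in Neu, at -1.45 (adjusted p = 0.0471). In these fits the lone library was assumed to vary like those of the other types. The pairs of libraries also differed in other ways. The median depth was 18273 UMIs in BRCA1-null A and 11970 in B, 8609 in Neu A and 15642 in Neu B, so the library with the higher *Fos* level was the shallower one in both types. In PyMT it was the deeper one, B, at a median of 19410.5 UMIs against 9241 in A. The median mitochondrial share was 3.94% and 4.63% in BRCA1-null A and B and 3.48% and 4.23% in Neu A and B. Among the 751 cells of BRCA1-null B with 5 or more mesenchymal UMIs *Fos* was at 683 CPM and *Jun* at 797 CPM, against 1050.2 CPM and 508 CPM in the other 1327 cells. The part of depth, mitochondrial share and mesenchymal cells in the differences between libraries was not tested.

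The 5 gene lists that belong to the same pathway were read in the same fits; they were chosen with earlier results of these data known. Of all genes 16.3% were higher and 12.8% lower in BRCA1-null than in Neu, 14.5% higher and 7.94% lower in BRCA1-null than in PyMT, and 7.5% higher and 9.38% lower in PyMT than in Neu, and the counts of the lists stand beside these shares. Among the 13 AP-1 target genes, such as proteases and their receptors, 9 were higher in BRCA1-null than in Neu and 0 lower, 5 higher and 1 lower than in PyMT, and 3 were higher in PyMT than in Neu. The median log2 fold changes of this list were 4.02, 2.86 and 2.50, beside 0.11, 0.11 and -0.06 over all genes. The mesenchymal markers were also higher in both BRCA1-null libraries, as given above, and their part in this list was not tested. *Plaur*, the receptor of urokinase, was higher in PyMT than in Neu by 6.46 (adjusted p = 0.00383) and lower in BRCA1-null than in PyMT, at -3.00 (adjusted p = 0.0146). *Timp1*, an inhibitor of matrix proteases, was higher in BRCA1-null than in Neu by 6.27 (adjusted p = 0.00426) and than in PyMT by 3.51 (adjusted p = 0.0195). Of the 12 other AP-1 family genes, 3 were higher and 1 lower in BRCA1-null than in PyMT, 4 were higher in BRCA1-null than in Neu, 4 were higher in PyMT than in Neu and 0 were lower in the last 2. The small Maf gene *Mafg* was higher in PyMT than in Neu by 2.82 (adjusted p = 0.00467), and *Jdp2*, which encodes a repressing partner of Jun, by 2.74 (adjusted p = 0.0272).

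Of 35 other immediate early genes, 14 were higher and 1 lower in BRCA1-null than in Neu, 8 higher and 4 lower than in PyMT, and 7 higher and 2 lower in PyMT than in Neu. *Id1* and *Id3*, inhibitors of helix-loop-helix factors, led the first of these at 5.95 and 6.08 (adjusted p = 0.00221 and 0.00125). *Ppp1r15a*, which restarts translation after stress, was higher in PyMT than in Neu by 2.46 (adjusted p = 0.0114). Of 13 heat shock genes known to rise on tissue dissociation, 4 were higher in BRCA1-null than in Neu, 3 higher in BRCA1-null than in PyMT and 1, *Bag3* (1.25, adjusted p = 0.0347), higher in PyMT than in Neu. Of 16 kinases and factors upstream of AP-1, at most 2 were higher and 1 lower in any of the 3. *Srf*, which encodes the serum response factor that drives *Fos*, was higher in PyMT than in Neu by 2.14 (adjusted p = 0.00925) and lower in BRCA1-null than in PyMT, at -1.10 (adjusted p = 0.0468).

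The members differed in how their RNA was spread over cells. To compare cells at 1 depth, each cell was thinned to 3000 UMIs, which left out between 23 and 233 cells per library. *Jund* was found in 70.7% to 91.3% of the cells of a library, *Junb* in 39.2% to 77.2%, *Jun* in 37.3% to 60.5% and *Klf6* in 29.7% to 87.6%. *Fos* was found in 20.1% to 52.2%, *Atf3* in 14.7% to 38.2%, *Egr1* in 4.62% to 33.2% and *Fosb* in 3.70% to 34.5%. *Fosl1* was found in 1.88% and 2.93% of Neu cells, 40.2% and 34.9% of PyMT cells and 59.0% of 4T1 cells. Without thinning *Fos* was found in 35.6% to 74.9% of cells. No cell type here can be taken to lack these genes, so the share that free RNA gives was not measured.

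The RNA of the inducible members was gathered in few cells. The measure used was the excess squared coefficient of variation, which is the variance beyond that of Poisson sampling divided by the squared mean. Its median over the 7 libraries was 10.5 for *Fos*, 8.10 for *Atf3*, 6.87 for *Egr1* and 3.77 for *Fosb*. It was 2.43 for *Jun*, 2.12 for *Ier2*, 1.52 for *Fosl1*, 1.24 for *Klf6*, 1.11 for *Junb* and 0.429 for *Jund*. The median over all genes with a mean of at least 0.1 UMI lay between 0.120 and 0.495 in a library, and the members were above that median in 64 of the 64 cases in which their own mean reached this minimum. It was below it in the other 6, *Fosl1* in both Neu libraries and *Fosb* and *Egr1* in PyMT A and Neu B, where genes of like mean were not compared. *Jund* was above the upper quartile of those genes in 2 of 7 libraries. In BRCA1-null A the 10% of cells with the most *Fos* held 83.9% of its UMIs, and in Neu A 54.1%. For *Jund* the top 10% held 26.5% to 34.9%. In Neu A *Fos* was found in 52.2% of cells at a mean of 2.45 UMIs, while in Neu B it was found in 27.8% at a mean of 1.18, and the excess was 2.85 and 11.7. In BRCA1-null B it was found in 47.5% of cells and in BRCA1-null A in 23.4%, and the excess was 9.54 and 10.5. In both types the library with the higher *Fos* level thus had the larger share of cells with a *Fos* UMI, and in BRCA1-null B 1 cell held 183 of its UMIs at this depth.

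Cells that held 1 member tended to hold others. Over the 45 pairs the median Pearson r of log2(count + 1) across cells was 0.0638 and 0.0810 in the PyMT libraries, 0.158 and 0.166 in those of Neu, 0.236 and 0.322 in those of BRCA1-null and 0.243 in that of 4T1. The median r of the members with all other genes lay between -0.00981 and 0.00175. BRCA1-null and 4T1 libraries were the highest and both PyMT libraries the lowest, and the replicates of a type lay closer to each other than to any other type in PyMT and Neu. These r values are descriptions over cells that share a library and, after thinning, a depth, and the weak ones carry little in counts this sparse.

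**Figure D3:**
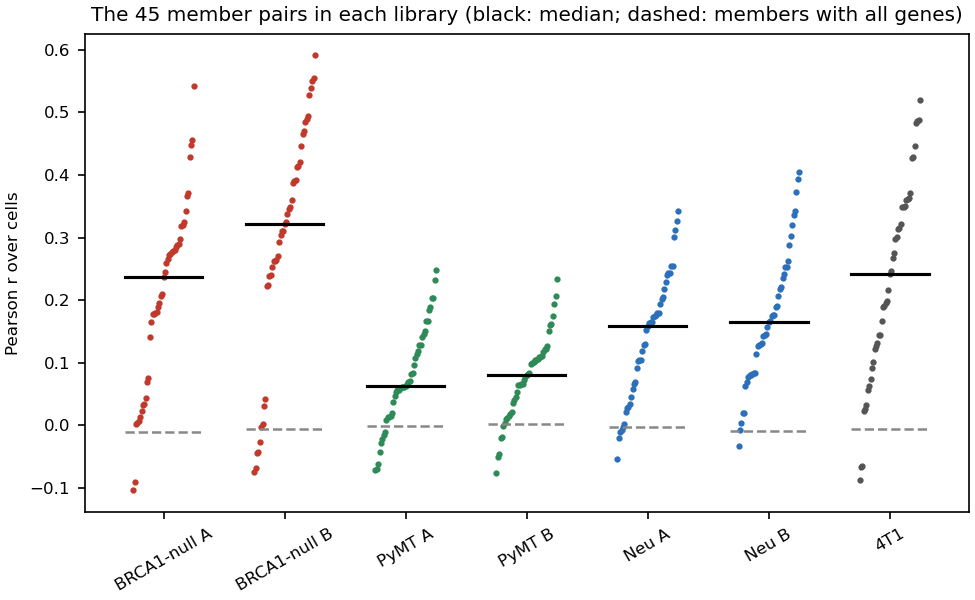
Pearson r over cells for the 45 pairs of members in each library (points, sorted by r), at 3000 UMIs per cell; the black line is their median and the dashed line the median r of members with all other genes. The medians run from 0.0638 in PyMT A to 0.322 in BRCA1-null B, and the lowest points of each library lie below 0.

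The pairs with the highest r were *Fos* with *Atf3* (median over libraries 0.39, range 0.07 to 0.48), *Jun* with *Atf3* (0.37, 0.12 to 0.49), *Fos* with *Junb* (0.34, 0.08 to 0.49) and *Fos* with *Jun* (0.34, 0.06 to 0.54). *Fos* with *Egr1* reached 0.33 (0.21 to 0.59). An r above 0.1 in all 7 libraries was found for 11 of the 45 pairs. *Fosl1* stood apart: its 9 pairs had medians from -0.07 with *Fos* to 0.07 with *Klf6*. With *Klf6* its r was 0.167 and 0.194 in PyMT A and B and 0.176 in Neu B, and at most 0.0736 in the other 4 libraries. *Fos* and *Fosl1* had a negative r in each library, between -0.09 and -0.03. The 4 promoters with TGACG shown above belong to *Fos*, *Fosb*, *Junb* and *Atf3*, whose 6 pairs had medians from 0.19 to 0.39. *Jun*, whose window lacks TGACG, reached 0.37 with *Atf3*. *Jun* with *Klf6*, whose windows both lack TGACG, had a median of 0.27, within the same range. The window of *Jund* ends before the start of the gene in GENCODE M21, so its pairs were left out here.

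**Figure D4:**
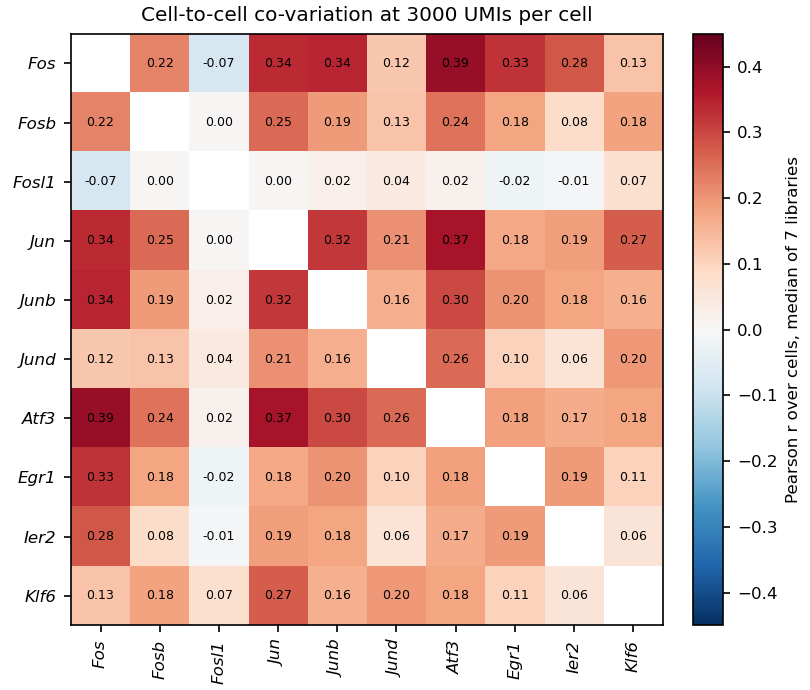
Median over the 7 libraries of the Pearson r between each pair of members across cells at 3000 UMIs per cell; red is positive and blue negative. The darkest squares join *Fos*, *Jun*, *Junb* and *Atf3*, and *Fos* with *Egr1*, and the row of *Fosl1* is pale, from -0.07 to 0.07.

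The same can be read from shares of cells. In BRCA1-null B, *Egr1* was found in 49.1% of the 903 cells with a *Fos* UMI and in 18.9% of the 998 cells without. In Neu A these shares were 23.6% and 8.27%, in PyMT A 14.3% and 5.14% and in 4T1 31.5% and 13.7%. *Fosb*, *Junb*, *Jund*, *Atf3*, *Egr1* and *Ier2* were found more often in cells with *Fos* than in cells without in 7 of 7 libraries, *Jun* and *Klf6* in 6 of 7 and *Fosl1* in 0 of 7. *Fosl1* was found in 52.9% of 4T1 cells with *Fos* and in 61.4% of those without. At least 8 of the 10 members were found in 14.0% of the cells of BRCA1-null B, 7.72% in 4T1, 3.60% in BRCA1-null A and 0.975% to 2.51% in PyMT and Neu.

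Among 1808 genes with a mean of at least 0.1 UMI in every library, those most like the summed members were ranked by their mean r over the 7 libraries. The sum was of UMIs, so members with many UMIs weighed most, as *Klf6* did in PyMT. Among the first 10 were *Ppp1r15a* (0.24), *Cyr61* (0.23), *Malat1* (0.21), *Ier5* (0.21), *Krt18* (0.20), *Gadd45b* (0.20), *Pnrc1* (0.20), *Nfkbia* (0.19) and *Ifrd1* (0.19). The median of the ranked genes was -0.01 and their 95th percentile 0.07. Over the libraries r ran from 0.15 to 0.37 for *Ppp1r15a*, 0.04 to 0.30 for *Malat1* and 0.02 to 0.35 for *Krt18*. *Gadd45b* is a stress gene and *Nfkbia* the inhibitor of NF-kB. Of the 12 other immediate early genes that could be ranked, 8 stood in the first 25, as did 2 of 8 heat shock genes. At the other end stood *Ppia* (-0.14) and *Rpl15* (-0.12), a cyclophilin and a ribosomal protein gene.

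The next comparison asked how the members relate to the depth of a cell. Of the 10 members 6 were lower in the deeper cells: *Fos*, *Fosb*, *Jun*, *Junb*, *Egr1* and *Klf6*. Each library was split at its own median UMI count, the UMIs of each side were summed, and the sides were compared with the library as a block. Of all genes 8.38% were lower in the deeper cells. *Fosb* had a log2 fold change of -1.01 (SE 0.12, adjusted p = 0.000206), *Fos* -0.77 (SE 0.18, adjusted p = 0.0118), *Jun* -0.69 (SE 0.10, adjusted p = 0.000693) and *Klf6* -0.54 (SE 0.08, adjusted p = 0.00101). *Junb* had -0.48 (SE 0.10, adjusted p = 0.00507) and *Egr1* -0.41 (SE 0.09, adjusted p = 0.00913). The count of members lower in deeper cells was 6 or 7 in each alternative tried, leave-one-out fits included.

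For *Fos* the deeper and the shallower cells were at 162 and 472 CPM in BRCA1-null A, 766 and 1410.4 CPM in BRCA1-null B, 136 and 133 CPM in PyMT A and 163 and 176 CPM in PyMT B. They were at 691 and 878 CPM in Neu A, 148 and 487 CPM in Neu B and 189 and 367 CPM in 4T1. *Fos* was lower in the deeper cells in 6 of 7 libraries, and those of PyMT differed least. *Fosb*, *Jun*, *Junb*, *Egr1* and *Klf6* were lower in 7 of 7, with *Jun* at 0.435 to 0.834 of the level of the shallower cells. The 4 that did not pass were *Atf3* (-0.43, SE 0.15, adjusted p = 0.0626), *Fosl1* (-0.28, adjusted p = 0.171), *Ier2* (-0.23, adjusted p = 0.164) and *Jund* (-0.16, adjusted p = 0.156). *Atf3* passed with DESeq2, at -0.44 (adjusted p = 0.0397), and without PyMT B, at -0.55 (adjusted p = 0.0262). Without BRCA1-null B, the library in which *Fosl1* was at 104 CPM in the deeper and 77.6 CPM in the shallower cells, *Fosl1* passed at -0.43 (adjusted p = 0.0152).

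With the cells of each library in 4 bins of equal number by depth, the largest step of *Fos* lay between the shallowest bin and the next. In BRCA1-null A *Fos* was at 1013 CPM in the shallowest bin, then at 279.7, 202 and 142 CPM, and in Neu B it was at 779, 332, 192 and 120.2 CPM. In 4T1 it was at 649 CPM in the shallowest bin and at 202, 158 and 212 CPM in the others. In PyMT A the bins were at 173, 109.5, 119 and 149 CPM, and the deepest bin was higher than the 2 before it. The shallowest bin of *Fos* was 1.16 to 7.14 times the deepest, of *Fosb* 1.77 to 6.88 times and of *Jund* 0.908 to 1.52 times.

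**Figure D5:**
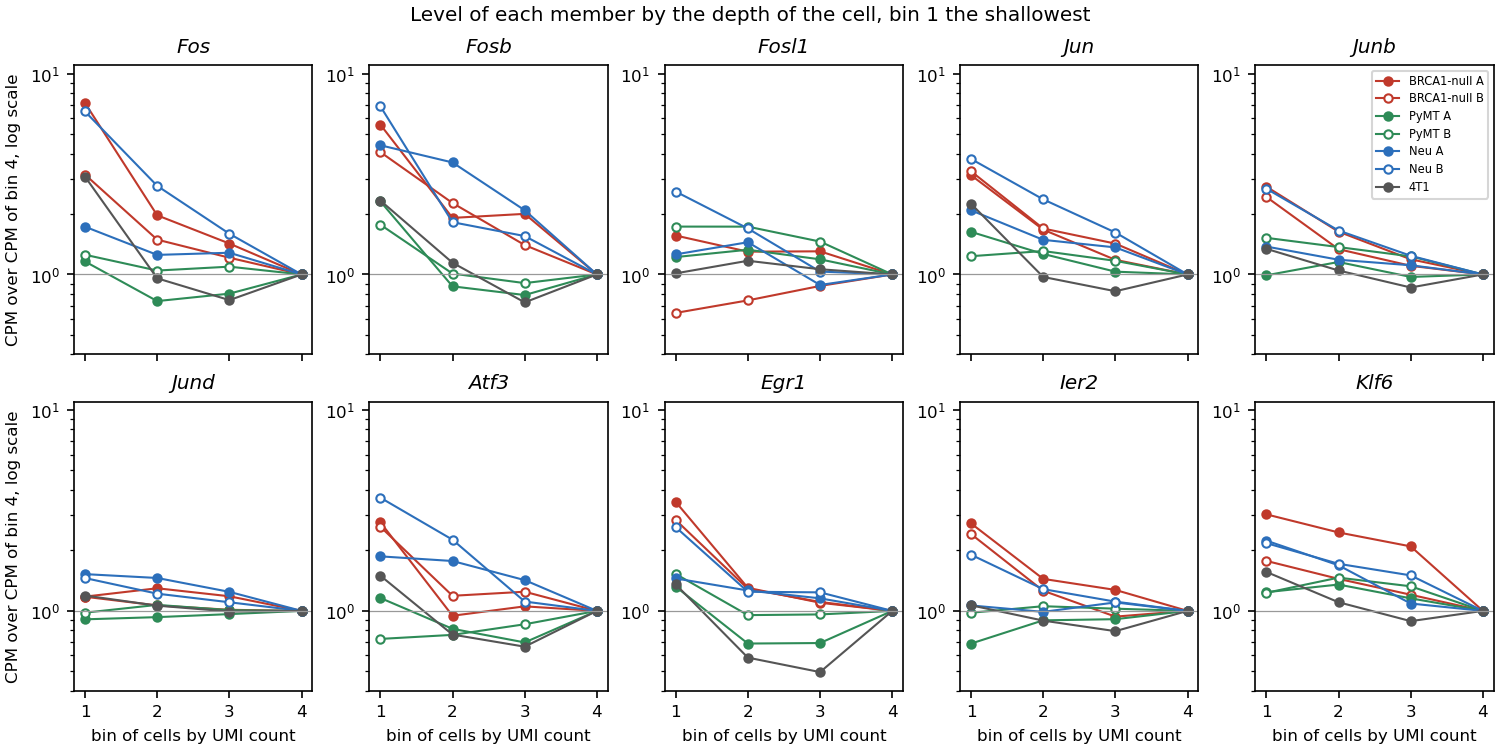
Level of each gene in 4 bins of the cells of a library by UMI count, over its level in the deepest bin (log scale); colors mark the tumor type and open points replicate B. *Fos* and *Fosb* fall from bin 1 to bin 4 in BRCA1-null and Neu, by up to 7.14 times for *Fos*, PyMT lines are flatter, and *Fosl1* in BRCA1-null B goes the other way.

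Whether the depth relation differed between the FVB/NJ types was tested as an interaction. With edgeR, 0 of 10 members passed, and 7 of 10 had an unadjusted p under 0.05, as did 1370 of all 11380 genes tested. The lowest was *Fosb* (adjusted p = 0.0717), with log2 fold changes of -1.16 in BRCA1-null tumors, -0.51 in those of PyMT and -1.48 in those of Neu. For *Fos* they were -1.13, -0.03 and -1.02 (adjusted p = 0.324). Of all genes tested 39 passed.

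Shallow cells differed from deep ones in other measures. The median mitochondrial share was higher in the shallower cells in 7 of 7 libraries, at 4.01% to 5.43% against 3.33% to 4.81%. Proliferation markers were higher in the deeper cells in 7 of 7. Immune markers were higher in the shallower cells in 7 of 7, between 1.21 and 189.6 CPM there, with *Cd3e* or *Ptprc* at 0 in 5 of 7 libraries. Mesenchymal markers were at 3848 CPM in the shallower and 1121 CPM in the deeper cells of BRCA1-null B, and at 1.27 and 2.03 CPM in PyMT A. The part of these in the depth relation was not tested.

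The lists of other genes were read in the same split by depth, in which 9.77% of all genes were higher in the deeper cells. Of 34 other immediate early genes tested, 18 were lower in deeper cells and 0 higher, of 13 heat shock genes 8 were lower and 1 higher, and of 11 other AP-1 family genes 4 were lower and 0 higher. The medians of these lists were -0.37, -0.41 and -0.23, beside -0.02 over all genes. *Ppp1r15a* (-0.81, adjusted p = 0.000115), *Ier5* (-0.55, adjusted p = 0.00037), the inducible heat shock gene *Hspa1b* (-0.76, adjusted p = 0.000175), *Hspb1* (-0.93, adjusted p = 0.000821) and *Maff* (-0.78, adjusted p = 8.76e-05) led them. Of 10 AP-1 targets 3 were lower and 1 higher, and of 16 kinases and factors upstream 0 were lower and 0 higher (median -0.06).

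Split at the median mitochondrial share of a library, a common sign of cell damage, 1 of 10 members passed: *Fosb* was higher in cells with the larger share by 0.39 on the log2 scale (SE 0.10, adjusted p = 0.0270), where 4.93% of all genes were higher. Mitochondrial genes were left out of the test, but the CPM of this split count their UMIs. By CPM *Fosb* was higher in 6 of 7 libraries, the exception being BRCA1-null B at a ratio of 0.974. Its adjusted p was 0.0636 without PyMT A, 0.0647 without Neu A, 0.0553 without Neu B and 0.0693 without 4T1, and *Junb* passed without BRCA1-null A (-0.17, adjusted p = 0.0365). *Fos* was at 299.6 and 181 CPM in cells with the larger and the smaller share in BRCA1-null A, 1169.6 and 724 CPM in BRCA1-null B 273 and 227 CPM in Neu B and 307 and 202 CPM in 4T1, but at 121 and 147 CPM in PyMT A, 154 and 180 CPM in PyMT B and 676 and 790 CPM in Neu A; over all libraries its log2 fold change was 0.21 (adjusted p = 0.267). In the 1211 barcodes with 20% or more of mitochondrial UMIs, which were left out as cells, the summed members took 2.16 and 1.58 times their share of nuclear UMIs in BRCA1-null A and B, 1.24 and 1.29 times in Neu, 1.64 times in 4T1 and 0.747 and 0.659 times in PyMT. These barcodes numbered 33 in BRCA1-null A and were shallower than the cells in every library. Their median was 1430 against 11970 UMIs in BRCA1-null B and 1085 against 11067 in 4T1. Depth and mitochondrial share are thus mixed in these ratios, which had no test.

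Last, proliferating cells were compared with the rest. Cells in which 2 or more of 8 proliferation genes were detected after thinning numbered between 18 in PyMT A and 245 in 4T1. Of the 10 members 2 were lower in proliferating cells, where 11.7% of all genes were lower. *Klf6* had a log2 fold change of -0.71 (SE 0.15, adjusted p = 0.000686) and was lower in 6 of 7 libraries. *Junb* had -0.57 (SE 0.17, adjusted p = 0.0153) and was lower in 5 of 7, at 315 against 718 CPM in PyMT A and 999 against 780.3 CPM in 4T1. *Junb* lost its call without PyMT A (adjusted p = 0.0594), PyMT B (0.107) or Neu B (0.0726). Without 4T1 *Jun*, *Jund* and *Atf3* passed as well, at -0.53, -0.35 and -0.73, as did *Jund* without BRCA1-null A (-0.38) and *Fos* without BRCA1-null B (-0.66). *Egr1* and *Ier2* had positive values, 0.33 (adjusted p = 0.303) and 0.16 (adjusted p = 0.472). Of all genes 8.81% were higher in proliferating cells. Of 25 other immediate early genes tested 11 were lower and 0 higher, led by *Cyr61* (-1.18, adjusted p = 8.52e-05) and *Rhob* (-0.61, adjusted p = 0.0026). Of 6 AP-1 targets 1 was higher and 5 were lower, among them the heme oxygenase gene *Hmox1* (-1.21, adjusted p = 5.45e-06).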

How the data were processed

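The authors processed the reads with Cell Ranger and deposited raw UMI counts per gene and barcode, aligned by STAR to the prebuilt mm10 reference. Their processing notes name Cell Ranger 2.2.0 for replicate A and 4T1 and 3.0.2 for replicate B, and every matrix header names 3.0.2; no version of STAR was given in the sources used here. The libraries used the 10x 3' kit. Fold changes and CPM were computed here from these counts; CPM are UMIs per 1000000 UMIs of the cells kept. The members and gene lists were chosen with earlier results of these data known.

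Counts were summed per library and tested with edgeR 4.0.16 in R 4.3.3 (TMM, filterByExpr, glmQLFit, glmQLFTest, Benjamini-Hochberg over all genes tested, 0.05). Tumor types were compared over 6 libraries with tumor type as the term, and splits within libraries over 7 with the library as a block. 4T1 was left out of the comparison of types. The 2 samples of a type are separate tumors sequenced in 2 batches, and the 2 PyMT tumors were grown from 1 line. Replicate letters were taken as batches from the Cell Ranger versions in the processing notes, although no label states it. Over 13950 genes the deviations of same-lettered libraries correlated only weakly. The r was 0.0618 between BRCA1-null and PyMT, 0.114 between BRCA1-null and Neu and 0.170 between Neu and PyMT. These values were not the ground for the choice. Total UMIs of the cells kept ran from 5578911 to 37693300. The TMM factors ran from 0.881 to 1.23, and the median log2 fold change over all genes was 0.11, 0.11 and -0.06 in the 3 comparisons of types. Scrublet (scanpy 1.11.5) marked 78 of 12168 cells as doublets, which were kept; their removal was an alternative, as were DESeq2 1.42.0 and the filters of the study, which leave 11639 cells. Thinning drew 3000 UMIs per cell without replacement. Named genes were the members, the 10 genes most like their sum (1 of them is not reported here), and up to 2 genes per list and comparison with the smallest adjusted p among those that passed. Genes were placed with GENCODE M21 (GRCm38). Promoter windows are from RefSeq. Tested on simulated counts for BRCA1-null against PyMT (13973 genes), the edgeR step recovered 98% of 4-fold and 22% of 2-fold rises, and for the split by depth (12513 genes) 100% of both. The simulated spread between libraries was the same for every gene and smaller than that between replicate tumors for members such as *Fos*.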

Additional observations from a re-analysis of the deposited data

How the results depend on the processing

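Of the 13 member results that passed, 170 of 190 values under an alternative also passed and 0 changed sign. Of the 47 that did not pass, 45 of 750 values passed and 40 changed sign, 0 of them while passing. For BRCA1-null against PyMT the count of members that passed was 1, and 3 with DESeq2 (*Fosl1*, *Egr1* and *Klf6*), 6 with no filter on low counts, 2 with cells thinned to 3000 UMIs, 2 with the replicate block and 0 to 4 with a library left out (4 without BRCA1-null A or B). For BRCA1-null against Neu it was 1, and 2 with DESeq2, library size only, Scrublet doublets removed or thinning (*Fosb* joining *Fosl1*), 3 with no filter and 0 to 5 with a library left out (5 without BRCA1-null A). For PyMT against Neu it was 2, and 3 with no filter (*Fos* joining) and 0 to 3 with a library left out. The replicate block changed no other call. For the mitochondrial split the count was 1, and 0 to 2 with a library left out. For proliferating cells it was 2, and 1 with library size only, 6 with no filter, 1 with at least 3 of 8 markers and 1 to 5 with a library left out. The cause was not tested. The median excess squared coefficient of variation was 2.64 and ran from 2.52 to 2.84 over its alternatives, and the median r of pairs was 0.166 and ran from 0.124 to 0.246. With 2 tumors per type, rises of 2-fold were mostly missed in the simulated counts, which gave every gene the same spread between libraries. Replicate tumors lay further apart for some members, with *Fos* in BRCA1-null B at 4.07 times A. In the data *Fosb* did not pass for BRCA1-null against Neu at a log2 fold change of 2.49 (edgeR, adjusted p = 0.0518). A member that did not pass may thus still differ by 2-fold or by more.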
